A study of Mus musculus with 20 samples.

Results

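Liver RNA was compared between 2 lean groups of mice, RYGB HFD and Sham Chow, both lean by the study's account and brought there by different routes. They are 10 of the 20 mice of the study, 5 in each group, chosen by the surgery and the diet in the sample labels, with 1 liver and 1 library per mouse. All were male C57BL/6 mice made obese by 12 weeks of a high-fat diet (HFD) before surgery. RYGB HFD mice then had Roux-en-Y gastric bypass (RYGB), which joins a small stomach pouch to the small intestine so that food passes by most of the stomach and the duodenum, and stayed on HFD for 8 weeks. Sham Chow mice had a sham operation and were moved to chow for the same 8 weeks. The groups therefore differed in both surgery and diet, and in this comparison the effects of the 2 cannot be told apart. RYGB Chow and Sham HFD, with 5 mice each, complete the design, and their values are given beside those of the lean groups for some of the genes described. Livers were drawn at random from a larger cohort without blinding, and the labels name no sequencing batch and give no age.

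The liver receives blood from the gut, makes most plasma proteins, clears drugs and food toxins, makes and exports lipids and bile acids, and stores iron. Hepcidin, a peptide hormone of hepatocytes encoded by *Hamp*, closes the only known exit for iron from cells, ferroportin, and its transcription is driven by bone morphogenetic proteins (BMPs) through SMAD factors and by inflammatory cytokines through STAT3. The nuclear receptors CAR and PXR switch on cytochromes P450 and other enzymes that clear foreign compounds, and NRF2 switches on glutathione and antioxidant genes. Diet composition, fat mass, bile acids and inflammation are all known to act on these programs.

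Between 14604854 and 22516253 reads per mouse were counted in genes, with a median of 19512532 in Sham Chow and 18106581 in RYGB HFD. Values are reads per 1000000 counted reads (CPM) on TMM-scaled library sizes, where TMM is the scaling of edgeR that takes most genes to be unchanged. Log2 fold changes are those of RYGB HFD over Sham Chow from edgeR's quasi-likelihood model of all 20 mice, with the standard error (SE) and a p-value adjusted over all tested genes, and a gene is called where the adjusted p is under 0.05. Where 2 ranges or sets of values are given without group names, Sham Chow comes first. Among 12289 genes with enough reads to test, RYGB HFD exceeded Sham Chow for 467 (3.80%) and fell below it for 476 (3.87%), so 943 (7.67%) were called. At an unadjusted p under 0.05 these counts were 1472 and 1482. For 890 genes (7.24%) the ranges of the groups did not touch, 418 (3.40%) with RYGB HFD higher and 472 (3.84%) with it lower. In the same model, which shares its mice between contrasts, 0.0570% of genes were called between RYGB Chow and Sham Chow, 3.65% between RYGB HFD and RYGB Chow, 16.4% between RYGB HFD and Sham HFD and 21.6% between Sham HFD and Sham Chow. Most differences were small, with a median absolute log2 fold change of 0.52 among called genes, and 529 of them (56.1%) had an estimate under 1.5-fold. Called genes that differed by 2-fold or more numbered 95 higher and 69 lower. For 7935 of 12286 genes (64.6%), the 95% interval of the fold change lay within 1.5-fold in either direction. On the first principal component of the 10 mice, which held 33.6% of the variance, Sham Chow mice scored from -13.4 to -3.65 and RYGB HFD mice from 5.27 to 10.3. Sham Chow replicate 5 lay farthest from the RYGB HFD mice on this component, and without it 212 genes were higher and 212 lower. Sham Chow replicate 1 lay nearest to them, and without it 568 genes were higher and 634 lower. Single mice also moved the counts of some gene lists by over 1.5 times, and the lowest or highest count and the mouse left out are given beside many of these.

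The largest estimated fold change between the lean groups was that of the iron hormone. *Hamp* stood at 721, 736, 1102, 625 and 964 CPM in the 5 Sham Chow mice and at 0.163, 0.521, 0.115, 0.0591 and 0.0665 CPM in the 5 RYGB HFD mice, whose libraries held only 17 *Hamp* reads in all, between 1 and 10 per mouse. The log2 fold change was -12.01 (SE 1.70, edgeR adjusted p = 0.00017), and the groups did not overlap (exact permutation test over all 252 splits, two-sided p = 0.00794, the smallest that 5 mice against 5 allow). *Hamp2*, a neighboring copy of the gene whose protein is not known to act on iron, was lower too. It stood at 5.99, 8.75, 7.26, 19.99 and 13.5 CPM in Sham Chow and at 0 counts in all 5 RYGB HFD libraries, so that with 3 counts per library as the floor it was at least 62.0-fold lower (edgeR adjusted p = 9.27e-05). In RYGB Chow *Hamp* ranged from 1.08 to 447 CPM, and in Sham HFD from 231 to 437 CPM, so every Sham HFD mouse lay above every RYGB HFD mouse and below every Sham Chow mouse. Since the copies are alike, reads of one could be assigned to the other, and the sources used here do not say how reads matching several genes were counted.

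The sequence upstream of both hepcidin genes is shown because the window of *Hamp* carries motifs through which BMP and cytokine signals are known to act on hepcidin. Each line gives the 250 bases before the transcription start from RefSeq (GRCm38.p6), 5′ to 3′ on the gene's minus strand, chr7:30944030-30944279 for *Hamp* and chr7:30924182-30924431 for *Hamp2*. Capitals mark GGCGCC, the core of a BMP response element, and TTCNNNGAA, a STAT motif, which were searched on both strands and do not overlap here.
Hamp: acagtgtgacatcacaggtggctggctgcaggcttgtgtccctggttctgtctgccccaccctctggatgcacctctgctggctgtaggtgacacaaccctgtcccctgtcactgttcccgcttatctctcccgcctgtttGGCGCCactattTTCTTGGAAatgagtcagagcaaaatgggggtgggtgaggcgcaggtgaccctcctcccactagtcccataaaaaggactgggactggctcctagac
Hamp2: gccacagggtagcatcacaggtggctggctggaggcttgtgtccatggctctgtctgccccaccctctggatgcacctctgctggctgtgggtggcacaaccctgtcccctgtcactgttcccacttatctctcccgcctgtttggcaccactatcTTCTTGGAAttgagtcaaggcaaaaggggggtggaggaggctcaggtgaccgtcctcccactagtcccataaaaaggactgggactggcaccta
In *Hamp*, GGCGCC begins 109 bases and TTCNNNGAA 97 bases before the start. *Hamp2* holds TTCNNNGAA at 94 bases but no GGCGCC, since the aligned letters differ by the substitution G4A, counted from 1 at the first base of GGCGCC with the letter of *Hamp* first. The windows were otherwise alike, with 227 of 247 aligned bases identical (91.9%). Over all 32851 promoter windows of the same length, 9.59% held GGCGCC and 7.02% held TTCNNNGAA.

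Several genes that BMP and SMAD signaling is known to raise in hepatocytes were lower in RYGB HFD. Of 21 tested genes of the hepcidin and BMP-SMAD list, 7 were lower and 2 higher (1 higher without RYGB HFD replicate 2), with a median log2 fold change of -0.13, against 0.01 over all tested genes. *Id1*, a helix-loop-helix inhibitor used as a readout of BMP signaling, stood at 7.58, 12.99, 10.3, 7.21 and 10.97 CPM in Sham Chow and 2.99, 2.03, 0.807, 2.54 and 1.79 CPM in RYGB HFD, with no overlap (log2 fold change -2.27, SE 0.36, edgeR adjusted p = 0.000582). *Bmp6*, the ligand that liver endothelial cells release as iron stores grow, stood at 9.85, 6.11, 8.05, 8.14 and 5.52 CPM in Sham Chow against 3.97, 2.55, 1.499, 3.43 and 2.79 CPM in RYGB HFD (-1.40, SE 0.33, adjusted p = 0.0147). *Id1* and *Bmp6* were thus lower in every RYGB HFD mouse than in any Sham Chow mouse. The transcription factor *Atoh8* (-1.62, SE 0.34) and the inhibitory SMAD gene *Smad7* (-1.01, SE 0.23), singled out after their values were seen, were also lower without overlap. *Fgl1*, a secreted hepatocyte protein that binds BMP6 and holds hepcidin down, went the other way, from 189, 119.7, 139.6, 144 and 119.6 CPM in Sham Chow to 523, 518, 586, 281 and 364 CPM in RYGB HFD (1.67, SE 0.20, adjusted p = 4.55e-05). It was higher in all 5 RYGB HFD mice, and ranged from 145 to 314 CPM in RYGB Chow and 144 to 191 CPM in Sham HFD.

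The iron uptake genes *Tfrc* and *Slc11a2* were higher and both ferritin chains lower in RYGB HFD. Of 19 tested genes of iron uptake, export and storage, 5 were higher and 3 lower. *Tfrc*, the transferrin receptor whose mRNA is stabilized when cell iron is low, stood at 17.5, 12.6, 16.00, 10.4 and 19.2 CPM in Sham Chow and 61.3, 18.01, 92.9, 104 and 83.5 CPM in RYGB HFD (log2 fold change 2.24, SE 0.32, edgeR adjusted p = 0.000198). Only RYGB HFD replicate 2 fell inside the Sham Chow range, and the other 4 lay more than 3 times above it. *Slc11a2*, which encodes the iron importer DMT1, ranged from 28.1 to 38.9 CPM in Sham Chow and from 41.8 to 69.2 CPM in RYGB HFD (0.80, SE 0.14). The ferritin light chain *Ftl1*, a part of the iron storage shell, stood at 1546, 1981, 1527, 1822 and 2066 CPM in Sham Chow and 1190.1, 1161, 1292, 1069 and 1054 CPM in RYGB HFD (-0.63, SE 0.10, adjusted p = 0.000349), and the heavy chain *Fth1* was lower too (-0.34, SE 0.08). The groups did not overlap for *Slc11a2* and either ferritin chain. *Slc40a1*, which encodes ferroportin and is controlled by hepcidin at the protein, stood at 149 to 242 CPM in Sham Chow and 171 to 224 CPM in RYGB HFD (0.13, 95% interval -0.17 to 0.44). The metalloreductase *Steap4* (0.72, SE 0.13) and the ferroxidase *Cp* (0.46, SE 0.09), the latter singled out after its value was seen, were higher without overlap.

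**Figure D1:**
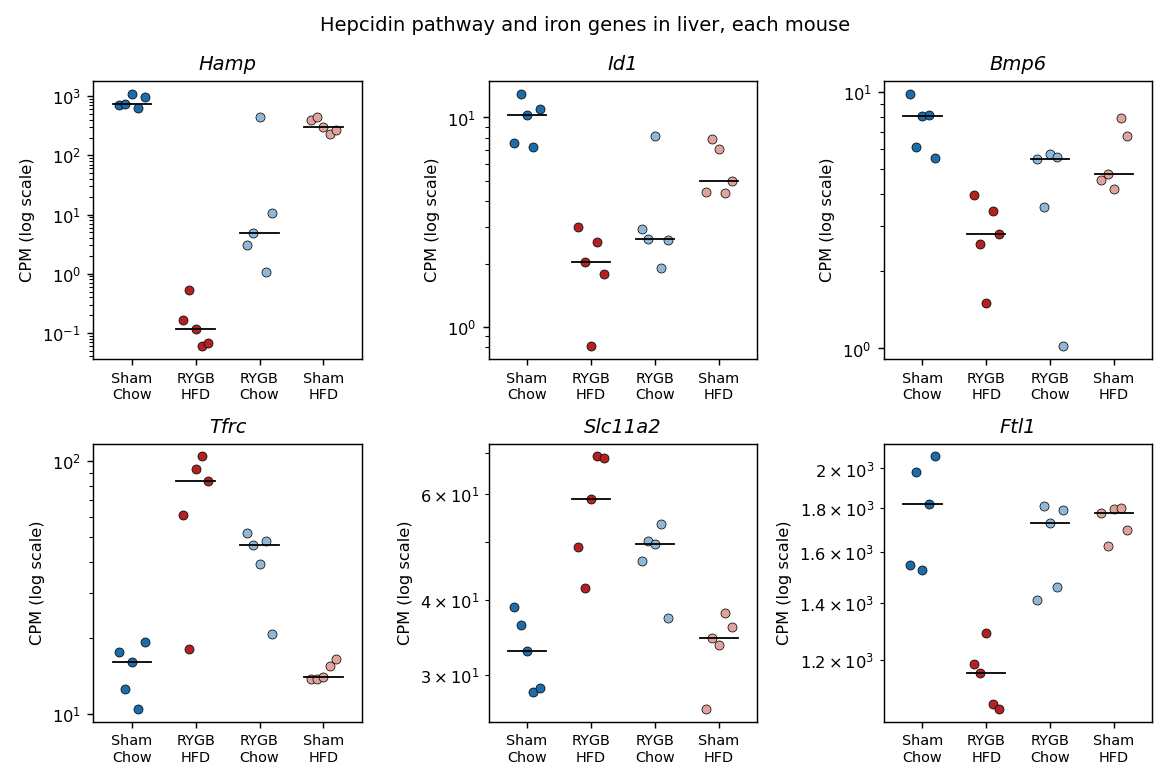
CPM of 6 genes on log axes, one point per mouse and a line at the median of each group of 5 mice. *Hamp* lies between 625 and 1102 in Sham Chow and at or below 0.521 in RYGB HFD, *Id1*, *Bmp6* and *Ftl1* are lower and *Slc11a2* higher in every RYGB HFD mouse than in any Sham Chow mouse, and *Tfrc* overlaps in 1 mouse.

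A second block of large differences lay in enzymes that clear foreign compounds, where most called genes were lower in RYGB HFD. *Cyp3a11*, the main P450 controlled by PXR in mouse liver, stood at 5673, 5305, 4978, 5279 and 5750.1 CPM in Sham Chow and 419, 328, 729, 487 and 435 CPM in RYGB HFD (log2 fold change -3.49, SE 0.22, edgeR adjusted p = 4.67e-09). Its range was 3962 to 7865 CPM in RYGB Chow and 507 to 1031 CPM in Sham HFD, so the HFD groups lay low and the chow groups high whatever the operation. *Cyp2b10*, the classical CAR target, was counted 939 times over the Sham Chow libraries and once over the RYGB HFD libraries, a ratio of 865 relative to library size with a 95% exact interval of 155 to 34209 that covers counting error only (edgeR adjusted p = 1.3e-05). It ranged from 0.0549 to 4.08 CPM in RYGB Chow and 0.870 to 2.41 CPM in Sham HFD. *Cyp2c55* (-3.50, SE 0.41) and *Cyp2c29* (-1.67, SE 0.21) were lower in all 5 mice as well. *Cyp2c29* ranged from 1498 to 1951 CPM in Sham Chow, 365 to 667 CPM in RYGB HFD and 417 to 703 CPM in Sham HFD. A list of P450 genes of the families Cyp1, Cyp2 and Cyp3, which also holds *Por*, had 41 tested genes. Of these, 8 were lower and 1 higher (2 higher without RYGB HFD replicate 5), with a median log2 fold change of -0.27. The mRNA of CAR, *Nr1i3*, ranged from 35.7 to 74.9 CPM in Sham Chow and 44.9 to 81.99 CPM in RYGB HFD (0.37, 95% interval -0.04 to 0.79), while the aryl hydrocarbon receptor *Ahr* was higher without overlap, 30.1 to 48.7 against 56.4 to 80.8 CPM (0.85, SE 0.16).

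Glutathione transferases, which join glutathione to reactive compounds, formed the list with the largest share of lower members. Of 22 tested genes, 14 were lower and 0 higher, 13 of them without overlap, and the median log2 fold change was -0.71. *Gstm1*, a mu-class enzyme, stood at 1232, 2259, 1591, 1950.4 and 1908 CPM in Sham Chow and 560.4, 612, 614, 636 and 752 CPM in RYGB HFD (log2 fold change -1.49, SE 0.14, edgeR adjusted p = 1.91e-06). In contrast to *Cyp3a11*, *Gstm1* lay high in Sham HFD, at 1303 to 1495 CPM, and in RYGB Chow, at 1439 to 2421 CPM, so that the 5 RYGB HFD mice were below all 15 others. *Gsta2* stood at 68.5, 55.01, 47.4, 67.6 and 61.3 CPM in Sham Chow and 9.14, 6.77, 6.46, 9.11 and 11.5 CPM in RYGB HFD (-2.81, SE 0.23, adjusted p = 3.95e-07), with 14.3 to 26.2 CPM in Sham HFD. *Gstm3* (-1.90, SE 0.30), *Gstm4* (-1.43, SE 0.13), *Gsta4* (-1.04, SE 0.14) and *Gstp1* (-1.32, SE 0.19) were lower in all 5 mice. *Gstp1* lay low in both HFD groups, as *Cyp3a11* did, with 252 to 421 CPM in Sham HFD, whereas *Gstm4* ranged from 49.2 to 67.2 CPM there and from 25.4 to 33.2 CPM in RYGB HFD. Many of these genes are near-identical copies, between which reads may have been split, so their single values are less certain than the list.

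Other NRF2 targets followed, in a list that also holds *Nfe2l2* and *Keap1*. Of its 17 tested genes, 8 were lower and 0 higher, with a median of -0.26. *Ephx1*, the microsomal epoxide hydrolase, stood at 432, 667, 374, 458 and 428 CPM in Sham Chow and 209, 170.3, 179, 148 and 175 CPM in RYGB HFD (log2 fold change -1.42, SE 0.17, edgeR adjusted p = 4.81e-05), and at 444 to 583 CPM in Sham HFD. All 5 RYGB HFD mice lay below the other 15 for this gene also. *Ugdh*, which makes the glucuronic acid donor, ranged from 166 to 228 CPM in Sham Chow and 92.4 to 141 CPM in RYGB HFD (-0.76, SE 0.11), and the efflux pump *Abcc3* from 333 to 419 and 130.1 to 218 CPM (-1.003, SE 0.13). *Nqo1*, the quinone reductase that is the standard readout of NRF2, was low throughout, at 9.61, 7.24, 7.17, 6.21 and 5.33 CPM in Sham Chow and 4.52, 4.06, 4.38, 1.83 and 4.52 CPM in RYGB HFD (-0.88, SE 0.24, adjusted p = 0.0282, and up to 0.0599 without RYGB HFD replicate 4 or Sham Chow replicate 1). Without RYGB HFD replicate 4, the count of lower members of the list was 5. The malic enzyme *Me1*, an NADPH source that is both an NRF2 target and a lipogenic gene, stood at 202, 411, 301, 333 and 274 CPM in Sham Chow and 89.8, 96.6, 108, 69.7 and 70.1 CPM in RYGB HFD (-1.81, SE 0.20, adjusted p = 2.22e-05), with 259 to 455 CPM in Sham HFD. It was lower in all 5 RYGB HFD mice.

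Conjugating and ester-cleaving enzymes were lower in part. Of 23 glucuronosyltransferases and sulfotransferases tested, 8 were lower and 2 higher, and the counts were 5 lower and 1 higher without RYGB HFD replicate 1, with 5 lower also under scaling by library size only. *Ugt2b5* ranged from 796 to 1107 CPM in Sham Chow and 480.0 to 548 CPM in RYGB HFD (log2 fold change -0.85, SE 0.11), and *Ugt1a9* from 28.3 to 52.2 and 10.8 to 21.8 CPM (-1.39, SE 0.22). Carboxylesterases cleave esters of drugs and lipids. Of 14 tested genes of their list, which also holds *Aadac*, 6 were lower and 0 higher. *Ces2a* stood at 479.7, 495, 518, 552 and 551 CPM in Sham Chow and 149, 141, 152, 169 and 133 CPM in RYGB HFD (-1.80, SE 0.15, edgeR adjusted p = 3.95e-07), with 270.4 to 614 CPM in RYGB Chow and 91.3 to 121 CPM in Sham HFD. As for *Cyp3a11*, both HFD groups were low, and RYGB Chow replicate 3 was the lowest of the chow mice. *Ces1d* (-1.27, SE 0.18) and *Ces1e* (-1.04, SE 0.13) were lower without overlap.

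**Figure D2:**
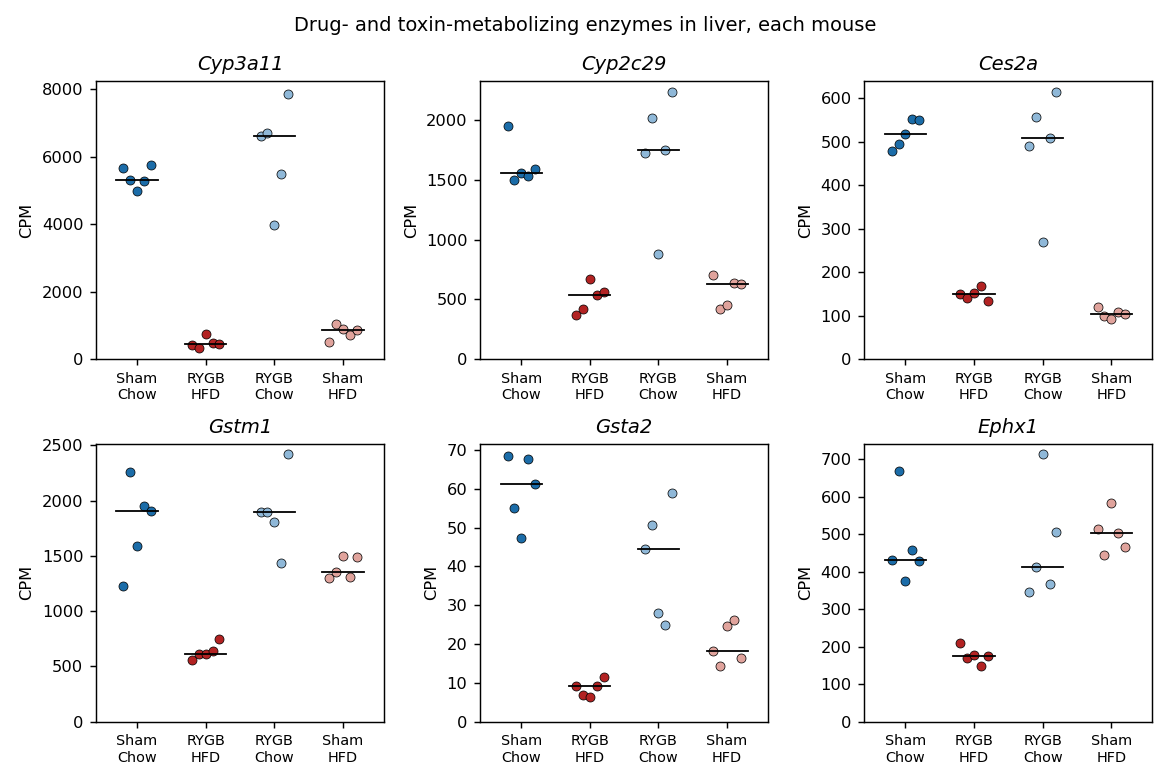
CPM of 6 enzymes of drug and toxin metabolism on linear axes from 0, one point per mouse and a line at each group's median. Each gene is lower in all 5 RYGB HFD mice than in any Sham Chow mouse, while the Sham HFD mice lie low for *Cyp3a11*, *Cyp2c29*, *Ces2a* and *Gsta2* and near the chow groups for *Gstm1* and *Ephx1*.

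Genes of many acute-phase plasma proteins, which hepatocytes release under cytokine signals, were higher in RYGB HFD. Of 25 tested acute-phase genes, 13 were higher and 0 lower, with a median log2 fold change of 0.60. *Itih4*, a protease inhibitor heavy chain, had the smallest p of all higher genes and stood at 1457, 1326, 1479.6, 1295 and 1332 CPM in Sham Chow and 2643, 2302, 3201, 2096 and 2325 CPM in RYGB HFD (log2 fold change 0.87, SE 0.09, edgeR adjusted p = 1.63e-05). In RYGB Chow it ranged from 1566 to 1900.2 CPM and in Sham HFD from 1629.6 to 1888 CPM, so that the RYGB HFD mice lay above all others. *Itih3* (1.001, SE 0.13) and *Pzp* (0.63, SE 0.09), a broad protease inhibitor, were higher in all 5 mice. Haptoglobin, *Hp*, which binds free hemoglobin, stood at 1863, 1947, 1985, 1817 and 1906 CPM in Sham Chow and 3766, 3346, 3725, 2749 and 2859 CPM in RYGB HFD (0.79, SE 0.13, adjusted p = 0.000661), and hemopexin, *Hpx*, which binds free heme, ranged from 2675 to 3032 and 3811 to 5044 CPM (0.60, SE 0.13). Both were higher in every RYGB HFD mouse. Outside the list, *Lrg1*, a secreted glycoprotein induced by cytokines, stood at 319, 257, 324, 317 and 402 CPM in Sham Chow and 693, 677, 1078, 600.2 and 707 CPM in RYGB HFD (1.21, SE 0.15, adjusted p = 5.16e-05).

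The strongly inducible members spread more between mice. *Lcn2*, a carrier of bacterial iron chelators, stood at 2.46, 0.880, 2.36, 1.86 and 2.00 CPM in Sham Chow and 16.5, 9.16, 32.00, 6.86 and 9.84 CPM in RYGB HFD (log2 fold change 2.95, SE 0.47, edgeR adjusted p = 0.000617), and Sham HFD mice also lay high, from 13.6 to 33.8 CPM. *Saa1*, serum amyloid A, stood at 16.3, 7.56, 25.2, 12.1 and 17.2 CPM in Sham Chow and 67.6, 51.5, 60.1, 23.95 and 19.8 CPM in RYGB HFD, where replicates 4 and 5 lay below Sham Chow replicate 3 (1.51, SE 0.41, adjusted p = 0.0315, and up to 0.0799 without any one of RYGB HFD replicates 1 and 3 or Sham Chow replicates 2, 4 and 5). *Socs3*, the feedback inhibitor of STAT3 signaling, ranged from 6.78 to 12.1 CPM in Sham Chow and 12.9 to 18.1 CPM in RYGB HFD (0.87, SE 0.25, adjusted p = 0.0362, and above 0.05, up to 0.0834, without any one mouse other than RYGB HFD replicate 4 and Sham Chow replicate 5). *Hamp*, which STAT3 can also drive, was near 0 in all 5 of these RYGB HFD mice.

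The upstream sequences of 2 higher genes that hold the STAT motif are shown with TTCNNNGAA in capitals, 250 bases before the start, 5′ to 3′ on the gene's strand (RefSeq, GRCm38.p6), chr14:30886226-30886475 on the plus strand for *Itih4* and chr3:83049864-83050113 on the minus strand for the fibrinogen gene *Fgb*.
Itih4: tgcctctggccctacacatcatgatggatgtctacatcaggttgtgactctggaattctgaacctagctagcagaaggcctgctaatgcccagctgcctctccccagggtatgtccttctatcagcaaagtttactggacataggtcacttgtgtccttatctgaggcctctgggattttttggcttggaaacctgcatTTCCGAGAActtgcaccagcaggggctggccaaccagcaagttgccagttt
Fgb: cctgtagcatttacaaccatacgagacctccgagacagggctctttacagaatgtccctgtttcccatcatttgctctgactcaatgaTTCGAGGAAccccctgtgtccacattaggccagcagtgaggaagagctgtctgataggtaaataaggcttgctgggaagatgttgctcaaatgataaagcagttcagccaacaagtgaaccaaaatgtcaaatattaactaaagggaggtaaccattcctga
The motif begins 51 bases before the start of *Itih4* and 162 bases before that of *Fgb*. Windows were found for 11 of the 13 higher acute-phase genes and 3 of them held the motif. Over all 19 tested members of the list with a window this was 15.8%, and over the 27025 genes with a window it was 8.13%, so the share of the list rests on 3 sequences.

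Called complement and clotting genes were all higher, most by smaller amounts. Of 30 tested complement genes, 13 were higher and 0 lower (6 without RYGB HFD replicate 1), and of 27 genes of coagulation and fibrinolysis 7 were higher and 0 lower (3 without RYGB HFD replicate 3). *Cfd*, complement factor D, which adipocytes also make, had the largest fold change of these lists and overlapped, with 0.145, 4.04, 0.509, 0.4998 and 0.546 CPM in Sham Chow and 24.4, 3.07, 12.5, 1.12 and 0.864 CPM in RYGB HFD (2.85, SE 0.83, edgeR adjusted p = 0.041, and up to 0.159 without any one mouse other than RYGB HFD replicates 2, 4 and 5 and Sham Chow replicate 2), and is named after its value was seen. *C4b* stood at 1129, 954, 1227, 1070.5 and 1113 CPM in Sham Chow and 2096, 1813, 2089, 1509 and 1852 CPM in RYGB HFD (log2 fold change 0.77, SE 0.09, edgeR adjusted p = 4.81e-05). *Hc*, complement C5, ranged from 667 to 971 and 1182 to 1576 CPM (0.76, SE 0.11), and *C3*, on which all complement routes converge, from 5818 to 7497 and 8776 to 11031 CPM (0.55, SE 0.11). For these 3 genes, every RYGB HFD mouse lay above every Sham Chow mouse. *C3* ranged from 4419 to 5022 CPM in Sham HFD, below all Sham Chow mice, and *C8a*, a part of the membrane attack complex, from 610.3 to 794 CPM in Sham Chow, 1000.1 to 1169 CPM in RYGB HFD (0.60, SE 0.12) and 249 to 438 CPM in Sham HFD. *C9*, the last component, was at 314 to 589 and 447 to 583 CPM and was not called (0.21, 95% interval -0.17 to 0.58).

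Among clotting genes, *Fgb*, the fibrinogen beta chain, stood at 4061, 3186, 4263, 3420.4 and 3601 CPM in Sham Chow and 4831, 5346, 5477, 4983 and 5628 CPM in RYGB HFD (log2 fold change 0.50, SE 0.09, edgeR adjusted p = 0.00287), and the gamma chain *Fgg* was higher too (0.42, SE 0.10). *F5*, coagulation factor V, ranged from 523 to 613 CPM in Sham Chow and 728 to 912 CPM in RYGB HFD (0.49, SE 0.08). These 3 genes did not overlap between the groups, with differences of under 1.5-fold each. The summed level of 8 hepatocyte markers, most of it *Alb* and with 0 called higher and 1 (*Ttr*) called lower, ranged from 90075 to 105826 CPM in Sham Chow and from 108141 to 121786 CPM in RYGB HFD (exact permutation test, two-sided, p adjusted over 13 marker lists = 0.0258), and its part in the plasma protein results was not tested.

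**Figure D3:**
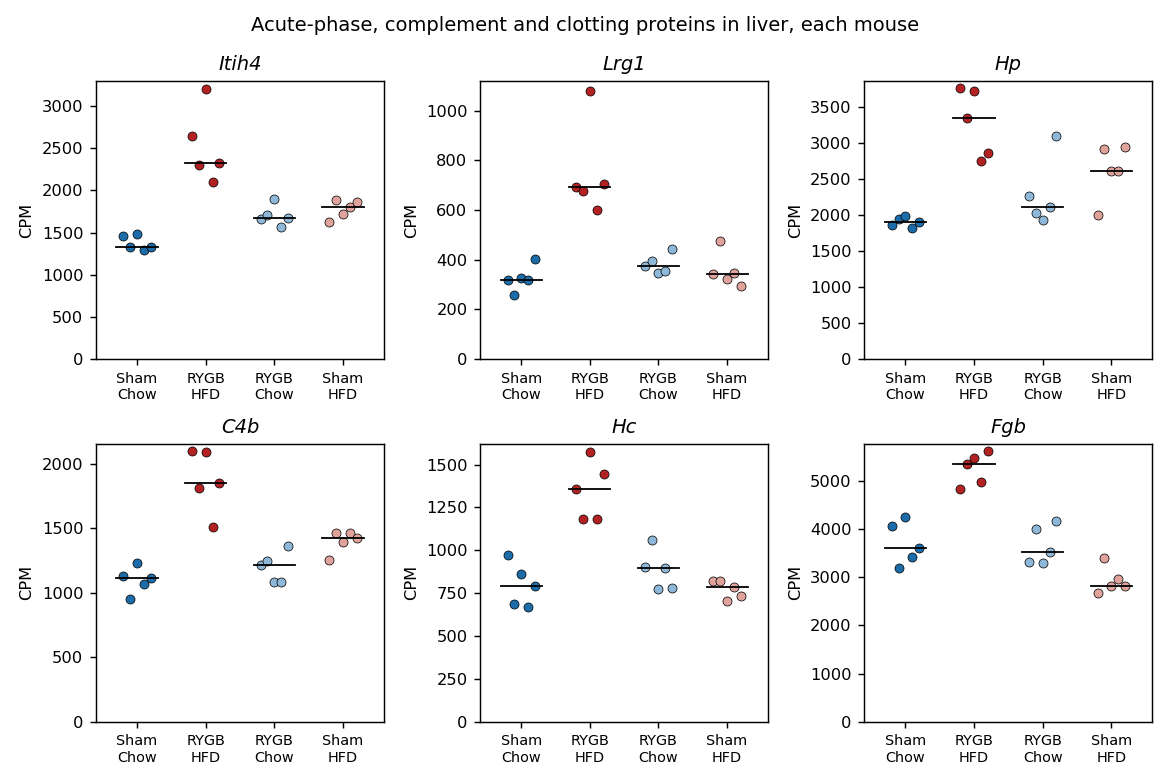
CPM of 6 secreted proteins on linear axes from 0, one point per mouse and a line at each group's median. All 5 RYGB HFD mice lie above all 5 Sham Chow mice in each panel, and above the RYGB Chow and Sham HFD mice for *Itih4*, *Lrg1*, *C4b*, *Hc* and *Fgb*.

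Lipid genes moved in both directions. Of 21 tested genes of fatty acid synthesis, elongation and desaturation, 4 were higher and 3 lower. *Scd1*, the desaturase that makes oleate, stood at 6947, 18306, 13549, 9716 and 12266 CPM in Sham Chow and 4483, 1779, 6029, 2874 and 1472 CPM in RYGB HFD (log2 fold change -1.87, SE 0.38, edgeR adjusted p = 0.00498). All 5 RYGB HFD mice lay below Sham Chow, with 12401 ± 2911 CPM (mean ± SD, n = 5) in Sham HFD. *Fads2*, which desaturates polyunsaturated fatty acids, went the other way, from 391 to 549 CPM to 603 to 901 CPM (0.67, SE 0.15, adjusted p = 0.00959). *Srebf1*, the lipogenic transcription factor, ranged from 162 to 287 CPM in Sham Chow and 178 to 538 CPM in RYGB HFD (0.82, SE 0.21, adjusted p = 0.0194, and up to 0.0585 without RYGB HFD replicate 3 or Sham Chow replicate 5). Without RYGB HFD replicate 3, 1 gene of the list was higher. *Fasn*, the fatty acid synthase, stood at 227, 317, 405, 484 and 299.7 CPM and 778, 860.3, 778, 374 and 327 CPM and was not called (0.85, 95% interval 0.22 to 1.48), and RYGB HFD replicates 4 and 5 lay within the Sham Chow range.

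In cholesterol synthesis and SREBP2 targets, 3 of 26 genes were higher and 0 lower. The share called was 11.5%, near the 7.67% of all tested genes. The median log2 fold change was 0.45, and 0 were called by edgeR without Sham Chow replicate 5. *Srebf2*, the transcription factor itself, ranged from 57.3 to 72.7 CPM in Sham Chow and 86.2 to 106 CPM in RYGB HFD (log2 fold change 0.56, SE 0.14, edgeR adjusted p = 0.0186, and 0.0548 without that mouse). *Hmgcs1*, an early enzyme of the pathway, stood at 136, 133, 220.1, 244 and 109.8 CPM and 406, 377, 351, 235 and 247 CPM (0.94, SE 0.28, adjusted p = 0.0439, and up to 0.118 without it or any one of RYGB HFD replicates 1, 2 and 3 or Sham Chow replicates 1 and 2). For *Hmgcs1*, RYGB HFD replicate 4 lay within the Sham Chow range and the other 4 above it.

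Of 26 apolipoprotein and lipoprotein genes, 3 were higher and 5 lower, with 5 higher without Sham Chow replicate 1 and 7 higher with an offset for gene length. *Scarb1*, the receptor through which the liver takes up cholesterol of high-density lipoprotein, stood at 213, 169.8, 187, 176 and 186 CPM in Sham Chow and 270.4, 292, 263, 317 and 374 CPM in RYGB HFD (log2 fold change 0.70, SE 0.09, edgeR adjusted p = 6.41e-05), with 189 to 208 CPM in Sham HFD. Lower members included 2 whose proteins act on plasma triglyceride. *Apoa5*, an activator of lipoprotein lipase, ranged from 914 to 1383 and 508 to 815 CPM (-0.99, SE 0.18). *Apoc3*, an inhibitor of lipases, was also lower (-0.57, SE 0.11), and the groups overlapped for neither gene. *Apoa1*, the main protein of high-density lipoprotein, lay higher in all 5 RYGB HFD mice, 5206 to 8164 against 8370.1 to 10329 CPM, but was not called (0.39, SE 0.14, adjusted p = 0.0926), and was called with scaling by library size only and with an offset for gene length.

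Among bile acid synthesis genes 7.14% were called, near the 7.67% of all tested genes. Among genes of bile acid and sterol transport 27.8% were called. Of 14 synthesis genes, 0 were higher and 1 lower, *Cyp8b1*, which sets the share of cholic acid (log2 fold change -0.64, SE 0.18, edgeR adjusted p = 0.0354, and up to 0.0836 without any one of RYGB HFD replicates 2, 3 and 4 or Sham Chow replicates 1 and 4). *Cyp7a1*, the rate-limiting enzyme, stood at 114, 95.7, 247, 337 and 133 CPM in Sham Chow and 509, 315, 314, 119 and 54.9 CPM in RYGB HFD, with overlap, and was not called (0.50, 95% interval -0.40 to 1.41). Of 18 genes of bile acid and sterol transport, 4 were higher and 1 lower. *Nr0b2*, which encodes SHP, the repressor that the bile acid receptor FXR induces, stood at 26.5, 25.2, 22.1, 10.99 and 17.2 CPM in Sham Chow and 56.9, 35.8, 38.9, 51.5 and 48.8 CPM in RYGB HFD (1.18, SE 0.23, adjusted p = 0.00345). The groups did not overlap for *Nr0b2*, nor for the sterol exporter *Abcg8* (0.45, SE 0.09) and the phospholipid flippase *Atp8b1* (0.57, SE 0.12), both higher.

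Several programs tied to fat load and metabolic state held no called gene between the lean groups. With 7.67% of all tested genes called, lists of this size hold few called genes at the background share, so a count of 0 is no result about them. Their 95% intervals lay within 1.5-fold for 58.3% of the triglyceride list, 75% of the insulin list, 67.6% of the endoplasmic reticulum stress list and 44.4% of the clock list, against 64.6% of all genes. Leaving out Sham Chow replicate 1 gave 2 lower genes each in the triglyceride and endoplasmic reticulum stress lists. In triglyceride synthesis and lipid droplets, 0 of 24 genes were called by edgeR (3 at an unadjusted p under 0.05, and 1 by DESeq2), and 14 had a 95% interval within 1.5-fold. *Cidec*, a lipid droplet protein that marks steatosis, ranged from 6.23 to 63.96 CPM in Sham Chow, where replicate 2 was highest, from 4.20 to 26.00 CPM in RYGB HFD and from 29.2 to 109 CPM in Sham HFD. In insulin signaling 0 of 16 were called (1 unadjusted, 0 by DESeq2) and 12 lay within 1.5-fold, while the receptor substrate *Irs2* ranged from 24.7 to 38.04 and 28.1 to 43.7 CPM (0.24, 95% interval -0.17 to 0.64). In endoplasmic reticulum stress and ATF4 targets, 0 of 34 were called (6 unadjusted, 2 by DESeq2) and 23 lay within 1.5-fold, and in the circadian clock 0 of 18 (1 unadjusted, 0 by DESeq2) with 8 within it. *Hspa5*, the main chaperone of the reticulum, ranged from 394 to 563 and 317 to 419 CPM (-0.32, 95% interval -0.65 to 0.01). In fatty acid oxidation, ketogenesis and PPARA targets, 1 of 39 was higher (*Bdh1*) and 1 lower (*Pex11a*), calls that edgeR lost without RYGB HFD replicate 2 and RYGB HFD replicate 1. *Cpt1a*, the gate of mitochondrial fat entry, ranged from 641 to 687 CPM in Sham Chow and 727 to 847 CPM in RYGB HFD, without overlap, but was not called (0.19, 95% interval 0.05 to 0.33, adjusted p = 0.0917), though DESeq2 called it.

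**Figure D4:**
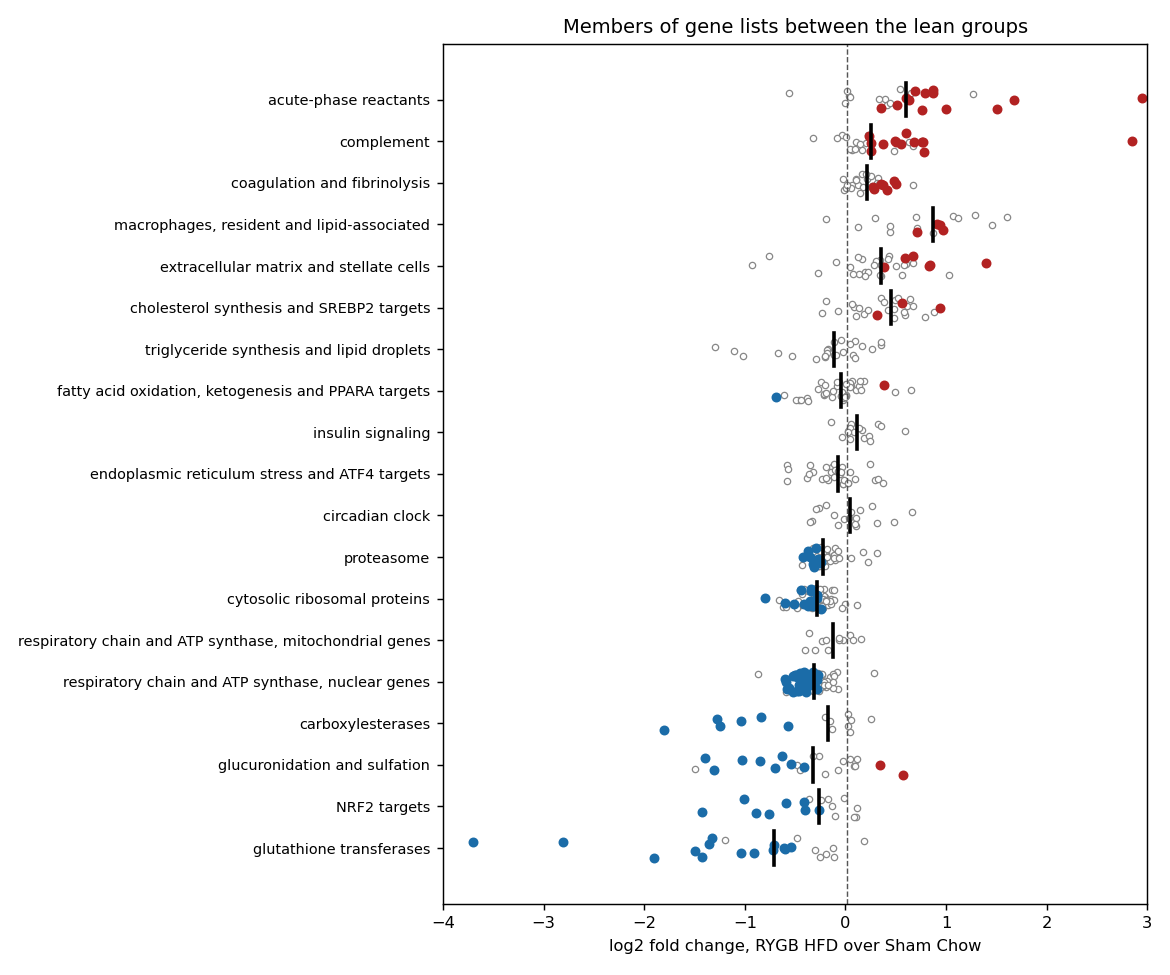
Log2 fold changes of RYGB HFD over Sham Chow for all tested members of 19 gene lists, with called members filled (red higher, blue lower), others open, a black bar at the list's median and a dashed line at the median of all genes, 0.01. Acute-phase genes center at 0.60 and glutathione transferases at -0.71, while lists such as insulin signaling hold no filled point.

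In amino acid and sugar metabolism, most called genes were lower. Of 35 genes of the urea cycle and amino acid breakdown, 5 were lower and 1 higher (1 lower without Sham Chow replicate 5, 8 lower without Sham Chow replicate 2 and 0 higher without RYGB HFD replicate 5). *Asl*, the urea cycle lyase, stood at 539.7, 413, 594, 642 and 814 CPM in Sham Chow and 327, 338, 288, 277 and 375 CPM in RYGB HFD (log2 fold change -0.90, SE 0.19, edgeR adjusted p = 0.00663), without overlap. Of 33 genes of glycolysis, gluconeogenesis, glycogen and the pentose phosphate route, 7 were lower and 1 higher (4 lower without RYGB HFD replicate 1 or with scaling by library size only, and 0 higher without RYGB HFD replicate 3), with *Pgk1* (-0.40, SE 0.10) and *Pgam1* (-0.34, SE 0.08) as examples. *Csad*, the enzyme that makes taurine's precursor and a member of no list, stood at 211, 856, 413, 337 and 306 CPM in Sham Chow and 95.6, 45.1, 38.3, 59.3 and 59.9 CPM in RYGB HFD (-2.83, SE 0.34, adjusted p = 4.69e-05). All 5 RYGB HFD mice lay below Sham Chow, and RYGB Chow averaged 488 ± 175 and Sham HFD 184 ± 47.7 CPM (mean ± SD, n = 5 each).

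Many genes of mitochondrial, ribosomal and proteasome subunits were lower in RYGB HFD by small amounts. Of 78 tested nuclear genes of the respiratory chain and ATP synthase, 34 were lower and 0 higher, with a median log2 fold change of -0.32. Of the 12 encoded by mitochondrial DNA, 0 were called by edgeR (2 at an unadjusted p under 0.05, and 2 by DESeq2). At the 7.67% called of all tested genes, 12 genes hold few calls, so a count of 0 is no result about them. *Ndufa4* stood at 222, 259, 266, 306 and 287 CPM in Sham Chow and 188, 197, 163, 199 and 185 CPM in RYGB HFD (-0.53, SE 0.10, edgeR adjusted p = 0.00386). Of 79 cytosolic ribosomal protein genes 15 were lower and 0 higher, and of 42 proteasome genes 9 were lower and 0 higher. *Rps27l* (-0.60, SE 0.09) and *Psma2* (-0.37, SE 0.08) were lower without overlap. Fold changes followed gene length. The median log2 fold change rose from -0.20 for the 585 genes with under 1000 bases of exon to 0.09 for the 2131 genes of the longest of 5 length classes, and the share of genes called lower fell from 9.40% to 1.27%. The median exon length was 1737 bases in the respiratory list and 1781 in the ribosomal list, against 4322 over all tested genes. With an offset for gene length, 18 respiratory, 7 ribosomal and 6 proteasome genes were lower, and DESeq2 called 50, 41 and 16. The counts also moved both ways with single mice. They fell to 12 respiratory genes without RYGB HFD replicate 3, 1 ribosomal gene without Sham Chow replicate 3 and 3 proteasome genes without RYGB HFD replicate 4, and reached 47, 50 and 14 without Sham Chow replicate 1. The part of gene length in these lists beyond that offset was not tested.

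**Figure D5:**
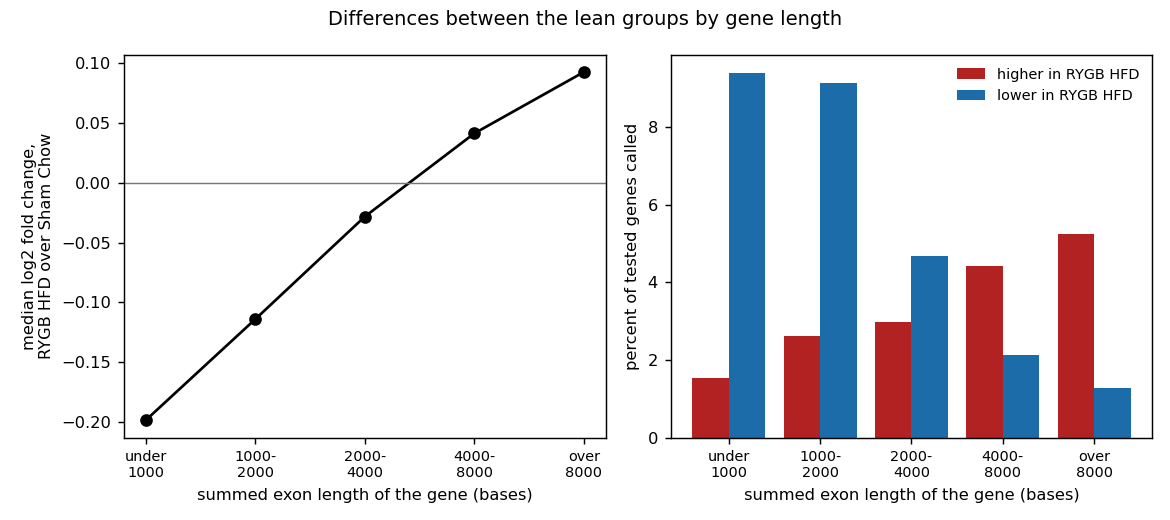
Left, the median log2 fold change of RYGB HFD over Sham Chow in 5 classes of summed exon length, and right, the percent of tested genes called higher and lower in each. The median rises from -0.20 to 0.09 and the percent called lower drops from 9.40 to 1.27 from the shortest to the longest class.

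Some macrophage and matrix genes were higher in RYGB HFD, with wide spread between mice. In bulk liver, more cells of a type and more RNA per cell cannot be told apart. Of 17 genes of resident and lipid-associated macrophages, 4 were higher and 0 lower, with a median log2 fold change of 0.87, while edgeR called 0 without Sham Chow replicate 5, 8 without Sham Chow replicate 1 and 2 with scaling by library size only. *Cd68*, a lysosomal protein of macrophages, stood at 6.95, 6.68, 4.49, 4.57 and 3.64 CPM in Sham Chow and 13.3, 7.91, 7.26, 9.88 and 11.3 CPM in RYGB HFD (0.91, SE 0.22, edgeR adjusted p = 0.0162, and 0.0529 without that mouse). *Clec4f*, found on Kupffer cells, the resident macrophages, stood at 90.9, 76.5, 59.9, 46.05 and 43.5 CPM and 133, 87.6, 78.5, 115 and 106 CPM (0.72, SE 0.20, adjusted p = 0.0346, and up to 0.0961 without it or any one of RYGB HFD replicates 1, 4 and 5 or Sham Chow replicates 3 and 4). Sham Chow replicate 5 held the lowest level of both genes and RYGB HFD replicate 1 the highest of the 10 mice. *Cd68* ranged from 5.76 to 13.3 CPM in RYGB Chow and 8.87 to 12.4 CPM in Sham HFD, and *Clec4f* from 81.9 to 164 and 83.9 to 114 CPM. The summed level of 8 Kupffer markers, all of which the macrophage list also holds, ranged from 103 to 296 CPM in Sham Chow and 231 to 440 CPM in RYGB HFD (exact permutation test, two-sided p = 0.0238, adjusted over 13 lists 0.0516). MHC class II genes, carried by dendritic cells, B cells and macrophages, held 0 of 8 called (1 at an unadjusted p under 0.05 and 0 by DESeq2). With 7.67% of all tested genes called and 0 of the 8 intervals within 1.5-fold, that count is no result about them.

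Of 32 extracellular matrix and stellate cell genes, 6 were higher and 0 lower. *Fn1*, fibronectin, which hepatocytes also secrete into plasma, ranged from 1258 to 1512 CPM in Sham Chow and 1738 to 2340.2 CPM in RYGB HFD (log2 fold change 0.59, SE 0.10, edgeR adjusted p = 0.00114). The basement membrane collagen *Col4a2* (0.84, SE 0.17), the collagen cross-linker *Loxl2* (1.40, SE 0.27) and, outside the list, *Tgfbi* (0.76, SE 0.09), a matrix protein induced by TGF-beta, were higher without overlap. *Col3a1*, a fibrillar collagen of scars, ranged from 7.03 to 21.6 CPM in Sham Chow, 16.6 to 23.4 CPM in RYGB HFD (0.34, 95% interval -0.10 to 0.78) and 42.5 to 64.7 CPM in Sham HFD, so the fibrillar gene was not called between the lean groups. Summed stellate cell and fibroblast markers ranged from 140 to 236 CPM and 204 to 296 CPM (exact permutation test, two-sided p = 0.0238, adjusted 0.0516).

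Growth and hormone genes differed in a few members. *Igf1* was not called, with 587 to 744 CPM in Sham Chow and 569.6 to 707 CPM in RYGB HFD (log2 fold change -0.14, 95% interval -0.36 to 0.08), and neither was *Mup20*, a growth hormone dependent male urinary protein (-0.25, 95% interval -0.73 to 0.24). Of 26 male-biased genes dependent on growth hormone, 4 were lower and 0 higher (2 lower without RYGB HFD replicate 1 or with an offset for gene length). The lower ones included *Gstp1*, described above, and the fatty acid hydroxylase *Cyp4a12a*, which stood at 193, 230.3, 217, 226 and 313 CPM in Sham Chow, 28.6, 27.9, 67.3, 85.8 and 81.01 CPM in RYGB HFD (-2.02, SE 0.33, edgeR adjusted p = 0.000676) and 19.2 to 50.7 CPM in Sham HFD. Female-biased genes held 0 of 11 called by edgeR (2 at an unadjusted p under 0.05 and 0 by DESeq2). With 7.67% of all tested genes called and 0 of the 11 intervals within 1.5-fold, that count is no result about them. *Inhbb*, a subunit of activin B, which can raise hepcidin in hepatocytes, was higher, 1.74, 1.76, 1.39, 3.28 and 2.06 CPM in Sham Chow against 8.87, 2.76, 2.65, 12.6 and 9.64 CPM in RYGB HFD (1.85, SE 0.42, adjusted p = 0.0112), and *Hamp* was near 0 in those mice. RYGB HFD replicates 2 and 3 lay within the Sham Chow range of *Inhbb*.

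Large increases were also found outside these programs. *Tff3*, a trefoil peptide of mucus-secreting epithelia, stood at 0.531, 0.673, 0.786, 0.4998 and 0.121 CPM in Sham Chow and 6.96, 6.77, 2.88, 11.4 and 5.25 CPM in RYGB HFD (log2 fold change 3.62, SE 0.53, edgeR adjusted p = 0.000235), and averaged 1.14 ± 0.683 CPM in RYGB Chow and 0.266 ± 0.238 CPM in Sham HFD (mean ± SD, n = 5 each). It was higher in all 5 RYGB HFD mice. The gut transcription factors *Cdx1* and *Cdx2* and the brush border genes *Cdh17* and *Sis* were at 0 in all 10 mice. The 10 gut markers, *Tff3* among them, summed to 19.8 to 30.5 CPM in Sham Chow and 17.7 to 31.1 CPM in RYGB HFD. Most of that sum was *Lgals4*, at 18.8 to 29.8 CPM in Sham Chow and 14.97 to 21.2 CPM in RYGB HFD. The source of the *Tff3* reads was not tested. *Neat1*, a nuclear long noncoding RNA, stood at 59.8, 47.2, 70.1, 82.9 and 61.2 CPM and 189, 272, 134, 183 and 219 CPM (1.63, SE 0.21, adjusted p = 6.9e-05), with 66.7 ± 16.6 CPM in RYGB Chow and 159 ± 46.4 CPM in Sham HFD. *Slc22a7*, an organic anion transporter (1.66, SE 0.29), *Slc41a2*, a magnesium transporter (1.64, SE 0.23), *Slc37a1* (1.92, SE 0.28) and *Rdh9*, a retinol dehydrogenase (1.35, SE 0.17), were higher in all 5 mice. *Rdh9* ranged from 6.86 to 12.2 CPM in Sham Chow and 21.5 to 29.8 CPM in RYGB HFD.

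Markers of other cells were summed per mouse as CPM on plain library sizes, as were the marker sums above. Bile duct markers summed to 30.3 to 49.0 CPM in Sham Chow and 53.8 to 66.0 CPM in RYGB HFD (7 genes, exact permutation test, two-sided p adjusted over 13 lists = 0.0258), led by *Spp1*, while *Krt19* reached at most 1.30 CPM and *Krt7* 1.52 CPM in the 10 mice. Adipocyte markers summed to 10.9 to 17.6 CPM and 27.2 to 54.7 CPM (7 genes, exact permutation test, adjusted p = 0.0258), most of it *Fabp4*, *Cfd* and *Adrb3*, with *Lep* and *Retn* at 0 in every mouse and *Adipoq* at most 0.0646 CPM. Neutrophil markers were low, at 2.44 to 2.82 CPM and 3.40 to 5.43 CPM (7 genes, exact permutation test, adjusted p = 0.0258), with *Ly6g* at 0. Sums of endothelial, T and NK cell, B and plasma cell, red cell, pancreas and muscle markers had adjusted p from 0.0884 to 0.937 in the same exact permutation test. The part of these cells in the differences was not tested.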

How the data were processed

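Per the labels and the study's methods, poly-A RNA of 1 liver per mouse was made into strand-specific libraries, and the authors trimmed reads with Trimmomatic 0.36, aligned them to mm10 with HISAT2 2.1.0 and counted them in genes with featureCounts 1.5.0-p3. The deposited values are raw counts of 54532 genes. The gene annotation release and the treatment of reads matching several genes are not given in the sources used here. A gene was tested where 3 or more of the 20 mice reached 2 CPM (12289 genes). One edgeR 4.0.16 quasi-likelihood model of the 4 groups with TMM scaling gave the contrast (R 4.3.3), with Benjamini-Hochberg adjustment, a threshold of 0.05 and 95% intervals. The spread between mice had a biological coefficient of variation of 0.181. Single sums were tested by exact permutation (scipy 1.17.1). Positions and exon lengths came from the reference annotation of GRCm38, and promoter sequences from RefSeq. Alternatives included DESeq2 1.42.0, limma-voom (limma 3.58.1), other scalings and filters, an offset for gene length and leaving out each mouse.

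The members and gene lists were chosen with earlier results of these data known. Genes were named if among the 8 with the smallest p or the 8 with the largest change per direction (no overlap, mean CPM of at least 5 in a group, no clone name), the 4 smallest p of each list, or an anchor of a list, with exceptions marked in the text. The scripts were tested on simulated data. Intervals of pooled reads cover counting error only. By the study's methods each sample is the liver of a separate mouse, so p-values measure the spread between mice. Results for some genes are not reported here.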

Additional observations from a re-analysis of the deposited data

Results flagged for a closer look

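In some genes, 1 mouse lay apart from the other 4 of its group by Dixon's gap test, which chance passes in about 1 of 20 groups. This was so for 15 of 212 values tested (7.08%). RYGB HFD replicate 3 accounted for 5 of them, with the highest level of its group for *Cyp2c55* (1.90 CPM), *Pzp* (8613 CPM), *Lrg1* (1078 CPM), *C8a* (1169 CPM) and *Cidec* (26.0 CPM). Sham Chow replicate 2 accounted for 5, with the highest level of *Ephx1* (667 CPM), *Cfd* (4.04 CPM) and *Cidec* (64.0 CPM) and the lowest of *Pgk1* (261 CPM) and *Ahsg* (3972 CPM). *Hamp* at 0.521 CPM in RYGB HFD replicate 2, *Cyp2b10* at 0.0591 CPM in RYGB HFD replicate 4, where its only read was found, *Nqo1* at 1.83 CPM in RYGB HFD replicate 4, *Cyp2c29* at 1951 CPM in Sham Chow replicate 1 and *Cpt1a* at 641 CPM in Sham Chow replicate 3 were the others. Among the called genes in this paragraph, *Nqo1* alone lost its call without the mouse in question, and the uncalled *Cidec* moved from a log2 fold change of -1.01 to -0.13 without Sham Chow replicate 2.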

How the results depend on the processing

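Of 106 named genes, 87 kept both their side of the threshold and their sign under the up to 21 alternatives run for each (20 for *Loxl2*, which a filter of 5 CPM removed), and 0 changed sign. The count of higher genes was 467 and that of lower genes 476. Leaving out each of the 10 mice in turn moved them to 212 to 568 and 212 to 634, with 301 higher without RYGB HFD replicate 1, 307 without Sham Chow replicate 3 and 212 without Sham Chow replicate 5, and with 298, 298, 277 and 303 lower without RYGB HFD replicates 1, 3, 4 and 5, 317 without Sham Chow replicate 4 and 212 without replicate 5. The cause was not tested. DESeq2 called 653 higher and 719 lower genes, and scaling by library size only left 303 lower, with 59.5% of calls higher against 49.5% under TMM, while it moved the median of all genes to 0.05. At an unadjusted p the counts were 1472 and 1482, and against a fold change of at least 1.5 they were 15 and 31. Intervals within 1.2-fold numbered 1859, within 1.5-fold 7935 and within 2-fold 10759. With the replicate block, 392 genes were higher and 399 lower. The labels do not say what the shared replicate numbers mean. Deviations of same-numbered mice of the lean groups correlated across genes by -0.211 to 0.068 (Pearson's r), and 0 of 5 matched their own number best. No pairing was therefore used, but a correlation over all genes cannot exclude a shared batch that acts on some of them. An offset for gene length with the replicate block was added after seeing the data. With 5 mice per group and 14604854 to 22516253 counted reads, a gene that missed the threshold is not shown to be equal between the groups, and its 95% interval gives what the data allow.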

Other observations

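The few called genes that mark the zones of the liver lobule were higher for one zone and lower for the other. Of 20 tested pericentral genes, expressed around the central vein under Wnt signals, 3 were higher and 0 lower in RYGB HFD, with a median log2 fold change of 0.37. The higher count was 2 without RYGB HFD replicate 1 or in a model of the 10 mice alone, and 5 with scaling by library size only. Of 16 periportal genes 3 were lower and 0 higher, with a median of -0.28 (1 lower without Sham Chow replicate 5 or with an offset for gene length, and 5 lower without Sham Chow replicate 1). The share called was 15% of the pericentral and 18.75% of the periportal list, against 7.67% of all tested genes. *Gulo*, the last enzyme of vitamin C synthesis, stood at 423, 269, 375, 393 and 438 CPM in Sham Chow and 677, 676, 603, 648 and 695 CPM in RYGB HFD (0.80, SE 0.15, edgeR adjusted p = 0.00329), without overlap. *Lgr5*, a receptor that strengthens Wnt signals, ranged from 2.43 to 9.27 CPM in Sham Chow and 8.77 to 18.01 CPM in RYGB HFD (1.10, SE 0.27, adjusted p = 0.0162, and 0.0522 without Sham Chow replicate 5). *Gls2*, the periportal glutaminase, ranged from 357 to 650.1 and 292 to 341 CPM (-0.65, SE 0.16, adjusted p = 0.0186, and 0.0504 without Sham Chow replicate 5). *Glul*, glutamine synthetase, which is confined to the pericentral rim, ranged from 631 to 889.7 and 746 to 1279.8 CPM and was not called (0.39, 95% interval 0.14 to 0.65) except by DESeq2, with scaling by library size only, with a filter of 5 CPM and without RYGB HFD replicate 3 or Sham Chow replicate 1.

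Single members of smaller lists differed as well. *Blvrb*, biliverdin reductase B, was the lower of 2 called genes among 15 of heme synthesis and breakdown, with 81.8 to 143 CPM in Sham Chow and 59.3 to 75.2 CPM in RYGB HFD (-0.82, SE 0.14, edgeR adjusted p = 0.0011). *Bst2*, an antiviral membrane protein, was lower (-0.70, SE 0.14), whereas 2 of the 31 interferon-stimulated genes were higher (1 without RYGB HFD replicate 3). Of that list 9.68% was called, near the 7.67% of all tested genes. Cholinephosphotransferase *Chpt1*, which completes phosphatidylcholine, was lower without overlap (-0.53, SE 0.10). *Ahsg*, the hepatokine fetuin-A, ranged from 3972 to 5413 CPM in Sham Chow and 6483 to 6962 CPM in RYGB HFD (0.40, SE 0.09). *Ttr*, the carrier of thyroid hormone and retinol-binding protein, was lower, at 5117, 5740.4, 5918, 6145 and 5317 CPM in Sham Chow and 4381, 4107, 3760.4, 4097 and 4076 CPM in RYGB HFD (-0.47, SE 0.10, adjusted p = 0.00826).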
